A study of Mus musculus with 48 samples.

Results

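Genes of the B lymphocyte and plasma cell lineage were followed in astrocyte ribosome pulldowns from the mouse dorsal hippocampus. They were Igkc, Jchain, Mzb1, Xbp1, Irf4, Prdm1, Pou2af1, Cd79b, Vav1 and Ptprc, 10 of the 47643 genes counted, matched by symbol. The genes were picked with the difference between the compartments already known, so their levels are given as a description without a test. Translating ribosome affinity purification (TRAP) used an antibody to green fluorescent protein to recover tagged ribosomes with their bound RNA. All 3 animals (C1 to C3) were of the strain Tg(Aldh1l1-eGFP/Rpl10a) JD130Htz, in which the Aldh1l1 promoter, active in astrocytes, drives a ribosomal protein fused to the fluorescent protein. No treatment or age was given, and no group lacked the transgene. Each animal gave a pulldown from whole astrocytes (Astro) and from perisynaptic astrocytic processes (PAP), the fine branches at synapses. Per the labels, extracts first passed a column without antibody and a column carrying unspecific mouse immunoglobulin G. Counts of the 8 technical replicates were added up for every animal and compartment, which left 3 Astro and 3 PAP libraries, or 6 in all, from 48 samples.

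Depth differed between the groups. Astro libraries held 18707844 to 20293538 counts, and PAP libraries held 1829962 to 2980984. Levels are CPM, counts scaled to a common library size with TMM factors. A floor of 3 counts, the most that a count of 0 allows, corresponded to 0.152 to 0.176 CPM in Astro and 0.991 to 1.55 CPM in PAP, and such floors cover counting error only. Counts scattered more in PAP: 16.4% of 14618 tested genes ranged from at most 3 counts in some PAP library to 100 or more in another, and 0.116% did so in Astro. A 0 in a PAP library therefore does not show that a gene is absent.

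B cells pass from progenitors, which rearrange their immunoglobulin genes with the recombinases, to mature cells that carry a membrane receptor built on CD79a and CD79b under the control of Pax5. An activated cell can switch its heavy chain from the mu class to a gamma, alpha or epsilon class, and its clone carries a single rearranged V and J pair on each productive chain. Plasma cells are the end stage: Irf4, Prdm1 and Xbp1 shut down the B cell programme and expand the secretory pathway, and most of their mRNA can be antibody and J chain. Dividing cells on this route are called plasmablasts.

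Each V segment of the kappa light chain is a separate gene, so the counts show which segments were in use. The same 3 of 100 annotated kappa V genes were the most counted in all 6 libraries. Their last 100 bases are shown from GENCODE M21 transcripts, at chr6:70074024-70074123 on the minus strand for Igkv6-32, chr6:69858420-69858519 on the minus strand for Igkv12-41 and chr6:70518750-70518849 on the plus strand for Igkv3-12 (GRCm38). Capitals mark the 23 bases after the conserved cysteine codon, where the third complementarity-determining region begins. The 2 kappa J segments with the most counts follow, Igkj1 at chr6:70722562-70722599 and Igkj2 at chr6:70722920-70722958, both on the plus strand. In these, capitals mark the bases that differ between them.
Igkv6-32: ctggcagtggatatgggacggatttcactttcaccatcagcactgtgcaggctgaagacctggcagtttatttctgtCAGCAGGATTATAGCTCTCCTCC
Igkv12-41: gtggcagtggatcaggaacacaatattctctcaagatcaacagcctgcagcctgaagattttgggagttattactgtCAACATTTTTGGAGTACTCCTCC
Igkv3-12: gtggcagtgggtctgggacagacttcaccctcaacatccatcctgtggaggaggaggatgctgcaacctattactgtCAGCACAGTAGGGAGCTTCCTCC
Igkj1: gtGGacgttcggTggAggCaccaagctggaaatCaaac
Igkj2: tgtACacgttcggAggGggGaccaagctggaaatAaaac
The 3 V segments were 67.8% to 78.9% identical to one another over their aligned bases, and the J segments were identical at 32 of 38 aligned bases. These printed bases are the reference sequence, and rearranged junctions were not analysed here.

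Of the 10 genes, 8 were higher in every PAP library than in any Astro library, and Prdm1 and Ptprc overlapped. Across all tested genes, 10.9% lay wholly above Astro in this way, but the genes were chosen from this contrast and nothing is read from the comparison. The median over the 10 of the difference in mean log2(CPM + 1) was 5.31. The filter on low counts was passed by 9 of the genes, and not by Ptprc. Because these are bulk pulldowns, more cells of a type and more RNA per cell cannot be told apart. Where the RNA of the 10 genes came from was not tested.

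**Figure D1:**
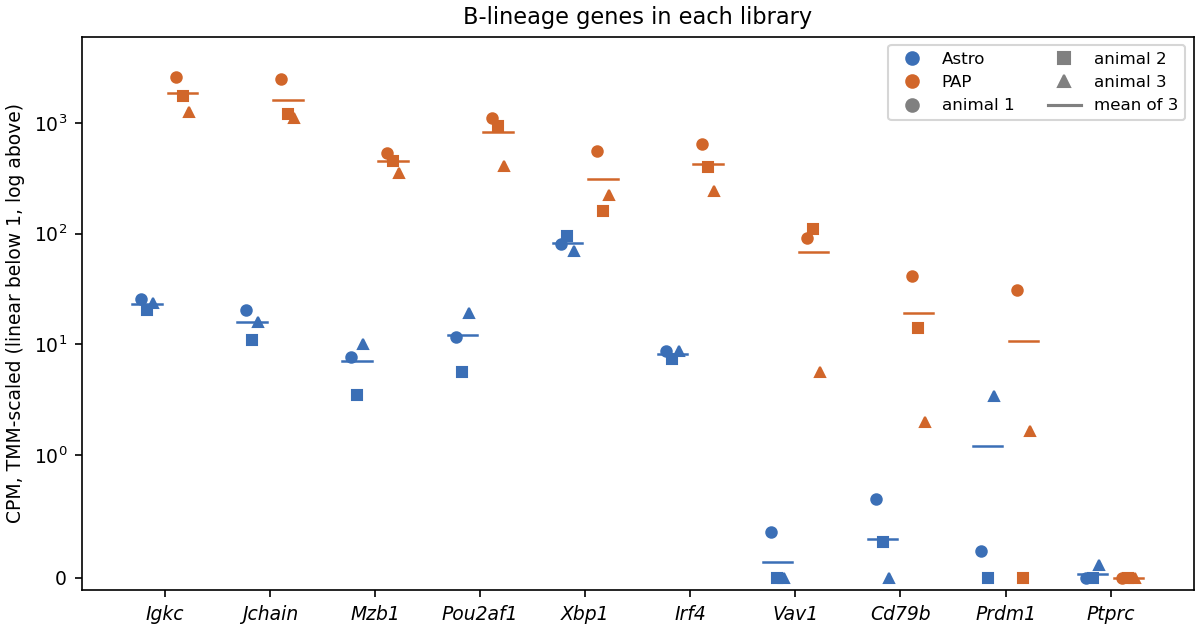
Level of each of the 10 genes in every library, in TMM-scaled CPM on an axis that is linear below 1 and logarithmic above, with Astro in blue, PAP in orange, a symbol for each animal and a line at the mean of 3. Igkc, Jchain, Mzb1, Pou2af1 and Irf4 lie between 242 and 2618 CPM in PAP and between 3.46 and 25.8 CPM in Astro, while Ptprc is at 0 in all PAP libraries.

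Antibody genes came first by level. Igkc, the constant region of the kappa light chain (ENSMUSG00000076609, chr6:70726435-70726966), had 481, 346 and 467 counts in Astro and 5130, 3377 and 3786 in PAP for animals 1 to 3. In CPM these were 25.8, 20.3 and 23.7 against 2618, 1741 and 1251, with means of 23.3 ± 2.79 and 1870 ± 692 (SD, n = 3 each). The groups lay far apart, at a ratio of means of 80.3, and each of the 8 technical replicates carried the signal, with 559 to 700, 389 to 449 and 403 to 543 counts in the PAP libraries. A non-coding gene on the same strand, Gm30211, overlaps Igkc and took a further 16 counts in Astro and 141 in PAP.

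Jchain, which joins secreted IgM or IgA into polymers (ENSMUSG00000067149, chr5:88519809-88527891), had 20.4, 11.0 and 16.0 CPM in Astro and 2515, 1202 and 1098 in PAP. Its ratio of means was 102, and the lowest PAP library was far above the highest Astro library. Jchain counts were 69.1% to 96.1% of Igkc counts within PAP libraries and 54.0% to 78.8% within Astro libraries. These ranges overlapped between compartments.

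Among genes of the secretory pathway, Mzb1, an endoplasmic reticulum protein that assists antibody assembly, had 7.68, 3.46 and 10.1 CPM in Astro and 538, 453 and 354 in PAP. Xbp1, the transcription factor of the unfolded protein response (ENSMUSG00000020484, chr11:5520659-5525893), had 80.1, 95.2 and 69.1 CPM in Astro and 556, 160 and 223 in PAP. The ratio of means was 63.3 for Mzb1 but 3.84 for Xbp1. Its counts were 291% to 469% of those of Igkc in Astro and 9.21% to 21.2% in PAP, ranges that do not overlap.

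Transcription factors of the plasma cell programme were unequal. Irf4, which drives plasma cell differentiation (chr13:30749226-30766976), had 8.65, 7.39 and 8.68 CPM in Astro and 648, 397 and 242 in PAP. Pou2af1, the B cell coactivator of octamer-dependent transcription (chr9:51213708-51240080), had 11.7, 5.63 and 19.3 CPM in Astro and 1114, 941 and 404 in PAP. The ratios of means were 52.1 and 67.1, with no overlap. Prdm1 encodes Blimp-1, the repressor that ends the B cell programme (chr10:44437177-44528501). It had 4, 0 and 67 counts in Astro and 60, 0 and 5 in PAP, and its highest Astro level, 3.40 CPM, was above the PAP level of animal 3, 1.65 CPM.

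Receptor and signalling genes were low. Cd79b, a signalling chain of the B cell receptor (chr11:106311341-106314762), had 12, 5 and 0 counts in Astro and 81, 27 and 6 in PAP, or 41.3, 13.9 and 1.98 CPM in PAP. Vav1, a guanine nucleotide exchange factor of blood cells (chr17:57279100-57328031), had 7, 0 and 0 counts in Astro and 179, 212 and 17 in PAP, or 91.3, 109 and 5.62 CPM. Both varied widely across the PAP libraries and were lowest in animal 3. Ptprc, the CD45 phosphatase of nearly all nucleated blood cells (chr1:138062861-138175708), had 2 counts in all, in the Astro library of animal 3. By counting error alone, a 0 in a PAP library allows up to 0.991 to 1.55 CPM, and the scatter between PAP libraries makes the true limit wider.

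Levels were ranked between genes per kilobase of exon, because the percentages of Igkc counts are not corrected for length. In PAP, Igkc had 3515 ± 1301 CPM per kb (SD, n = 3), rank 88 among all genes. Jchain followed with 638 ± 314, Mzb1 with 369 ± 75.7, Pou2af1 with 322 ± 145, Xbp1 with 96.4 ± 65.4 and Irf4 with 87.5 ± 41.8 CPM per kb. Vav1 and Cd79b had means of 18.6 and 13.3 CPM per kb, Prdm1 had 1.93 and Ptprc 0. Among neighbours in this order, the PAP ranges were separate only for Igkc against Jchain and for Irf4 against Vav1. Within libraries, Jchain was above Mzb1, Mzb1 above Pou2af1, Pou2af1 above Xbp1 and Cd79b above Prdm1 in 3 of 3, while Xbp1 was above Irf4, Vav1 above Cd79b and Prdm1 above Ptprc in 2 of 3. In Astro, Igkc also led, with 43.8 CPM per kb, but Xbp1 came next with 25.1, ahead of Jchain at 6.27, Mzb1 at 5.83, Pou2af1 at 4.79 and Irf4 at 1.68.

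Within a library, the other members can be set against Igkc counts, without correction for length, to compare the compartments. Mzb1 was 20.5%, 26.0% and 28.3% of Igkc in PAP and 29.7%, 17.1% and 42.6% in Astro. Pou2af1 was 42.6%, 54.0% and 32.3% in PAP and 45.1%, 27.7% and 81.6% in Astro. Irf4 was 19.3% to 24.8% in PAP and 33.5% to 36.6% in Astro. The ranges of Mzb1 and Pou2af1 overlapped between compartments, and that of Irf4 lay lower in PAP.

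Immunoglobulin genes as a class made up 0.00596%, 0.00406% and 0.00607% of counts in Astro and 0.649%, 0.45% and 0.263% in PAP. Of 429 annotated immunoglobulin genes, 62 had a count and 24 passed the filter. Heavy-chain constant counts were mostly of the gamma class. Ighg1, the IgG1 constant region (chr12:113325240-113330523), had 207, 122 and 209 counts in Astro and 2382, 2495 and 1465 in PAP. Ighg2b had 59, 10 and 117 counts in Astro and 647, 615 and 413 in PAP. Together these 2 genes held 96.2%, 99.5% and 93.6% of heavy constant counts in PAP and 63%, 63.8% and 81.7% in Astro. Ighg2c had 107, 17 and 125 counts in PAP against 11, 12 and 12 in Astro, and Ighg3 had 12, 0 and 3 against 3, 2 and 1. The Ighg genes are similar in sequence, with 72.2% to 88.5% identity among Ighg1, Ighg2b and Ighg2c, so the division of reads among them is uncertain.

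Mu, alpha, delta and epsilon classes had no count in PAP. Ighm, the IgM constant region of unswitched B cells, had 135, 60 and 60 counts in Astro and 0 in each PAP library, at least 3.4-fold lower in PAP by counting error alone. Igha, of the IgA class, had 7, 1 and 0 counts in Astro and 0 in PAP, and Ighd and Ighe had 0 counts in all 6 libraries. All 3 PAP libraries thus held Jchain but no count of the mu or alpha chain that Jchain is known to join.

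Light chains were mainly kappa in both compartments. Lambda constant genes held 12.4%, 7.28% and 6.5% of light-chain constant counts in PAP and 9.93%, 8.71% and 10% in Astro. Iglc3 led, with 50, 20 and 41 counts in Astro and 457, 221 and 240 in PAP. Iglc2 had 1, 13 and 11 counts in Astro against 204, 44 and 23 in PAP, Iglc1 had 2, 0 and 0 against 62, 0 and 0, and Iglc4 had none.

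Use of V genes was narrow. Igkv6-32 had 80, 25 and 86 counts in Astro and 709, 248 and 681 in PAP. Igkv12-41 had 48, 42 and 44 in Astro and 763, 306 and 384 in PAP. Igkv3-12 had 38, 27 and 35 in Astro and 419, 327 and 280 in PAP. These 3 segments, whose sequences are shown above, held 92.7%, 91.3% and 91.2% of kappa V counts in Astro and 97.3%, 90.7% and 99.8% in PAP. Only 4 to 7 kappa V genes in Astro and 5 to 9 in PAP had any count. Of the J segments shown, Igkj1 had 298, 121 and 218 counts in PAP and Igkj2 had 69, 80 and 84. The leading kappa V genes were thus shared by libraries of different animals and of both compartments, and 2 to 5 of the 5 kappa J genes had a count in a library.

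**Figure D2:**
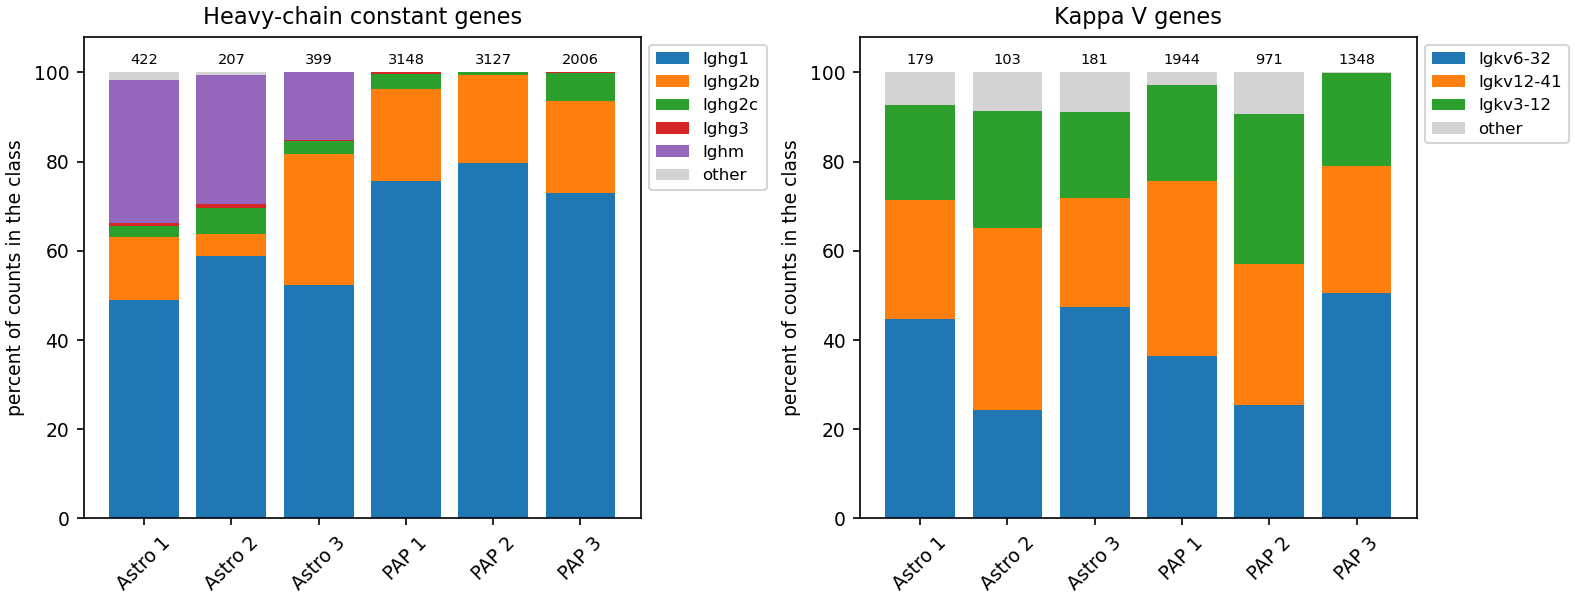
Share of heavy-chain constant counts by gene (left) and of kappa V counts by gene (right) in each library, as stacked percentages with the class total above each bar. Ighg1 takes 73% to 79.8% of heavy constant counts in PAP, Ighm is seen in Astro only, and the same 3 kappa V genes fill 90.7% or more of every bar.

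Heavy V counts were sparse and spread over more genes. The 115 heavy V genes had 26, 27 and 25 counts in Astro and 337, 182 and 78 in PAP. Summed over PAP libraries, Ighv1-85 led with 80, 66 and 7 counts, before Ighv1-64 with 62, 18 and 25 and Ighv8-8 with 31, 22 and 8. In PAP of animal 3 and in each Astro library the leading gene was Ighv1-64. Among lambda V genes, Iglv3 had 33, 19 and 13 counts in PAP and Iglv1 had 30, 0 and 0. Kappa V counts were 28.8% to 37.9% of Igkc counts in PAP and 29.8% to 38.8% in Astro, overlapping ranges. For the heavy chain these shares were 3.89% to 10.7% and 6.16% to 13%.

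The stage of the B lineage was described with lists of marker genes that do not include the 10. The lists were chosen with earlier results of these data known, so their calls are description and no independent support. Across all 14618 tested genes, 865 (5.92%) were higher in PAP and 2250 (15.4%) lower by edgeR's quasi-likelihood test at an adjusted p under 0.05. With the animal as a block, 128 (0.876%) were higher and 5 (0.0342%) lower. Over every gene tested, the median was -0.53 on the log2 scale, and -1.63 with the block. DESeq2 called 1685 of the same genes higher and 3456 lower. The share of all genes at an unadjusted p under 0.05 was not computed. The filter asks for 0.922 CPM, before scaling, in 3 libraries. Of the 39 list genes called, 25 reached it in all libraries of each group. Of the others, 9 passed through PAP alone and were higher there, and 5 passed through Astro alone and were lower in PAP. A gene that passes only where it is high had to differ, so these 14 are given by their values, with no p, and support nothing. The same holds for uncalled genes that passed only through the group where they were high. Medians below include such genes and are description only. They were the same with genes at 0 in a whole group set to their bound.

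**Figure D3:**
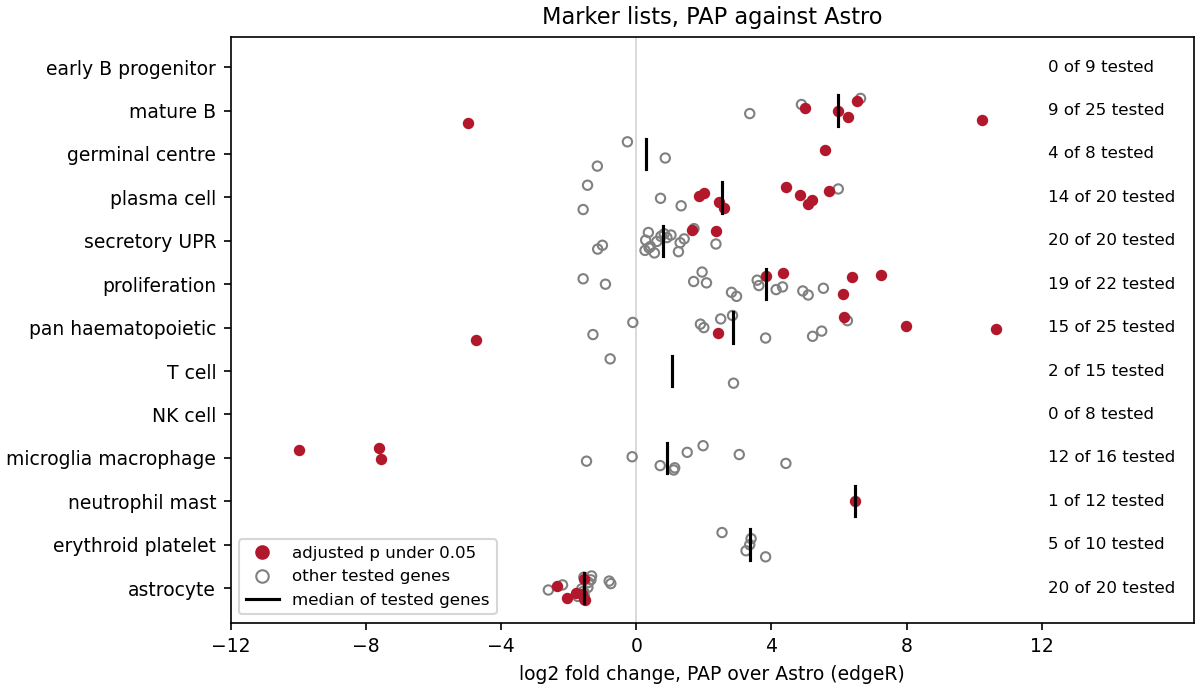
Log2 fold change of PAP over Astro for each tested gene of the 13 marker lists, with filled points for an adjusted p under 0.05 in edgeR and a bar at the list's median. Medians lie at 5.98 for the mature B list, 2.52 for the plasma cell list, 3.84 for the proliferation list and -1.55 for the astrocyte list. Points and medians include genes that passed the filter only through the group where they are high. Such points support nothing, and the medians are description only.

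Progenitor genes had few counts. None of the 9 genes of the early B list passed the filter, and all had at most 3 counts in each PAP library. Rag1, a recombinase, had 1 count in Astro and 1 in PAP, Vpreb1, of the surrogate light chain, had 15, 64 and 12 counts in Astro and 0 in PAP, and Vpreb3 had 6, 11 and 9 in Astro and 0 in PAP. Igll1 had 0 everywhere. The summed level of the list was 1.13 to 4.46 CPM in Astro and at most 0.515 CPM in PAP.

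Mature B cell genes split. Of 25 genes, 9 were tested, with 5 higher and 1 lower. Of these calls, only the higher ones of Blnk and Cd74 passed the filter in each group. The median log2 fold change of the 9 was 5.98. The 9 include Ms4a1, Bank1, Spib, Ebf1 and Cd37, which passed through PAP alone, so nothing is read from the median. With the animal as a block, 1 was called. Blnk, the adaptor downstream of the B cell receptor, rose from 2.58, 2.76 and 6.09 CPM to 378, 197 and 312 (log2 fold change 6.27 ± 0.61 SE, adjusted p 0.00451 in edgeR, 0.0223 with the block). Cd74, the invariant chain of MHC class II, rose from 2.26, 2.88 and 5.33 CPM to 172, 99 and 68.1 (log2 fold change 5.01 ± 0.75 SE, adjusted p 0.02, with the block 0.179). Cd37, a tetraspanin, had 0.484, 1.64 and 0.305 CPM in Astro and 27.6, 103 and 25.1 in PAP. Ms4a1, which encodes CD20, had 1.67, 0.939 and 0 CPM in Astro and 66.3, 145 and 34.4 in PAP. Bank1, a signalling scaffold, had no count in Astro and 14, 2 and 107 in PAP, most of them in animal 3. Cd37, Ms4a1 and Bank1 passed the filter through PAP alone.

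Spib, Ebf1 and Cd24a were tested but not called. Spib had 0, 5 and 0 counts in Astro and 27, 34 and 3 in PAP, and Ebf1 had 0, 11 and 1 against 37, 2 and 5. Both passed the filter through PAP alone, so no p is given. Cd24a had 135, 32 and 139 counts in Astro and 225, 100 and 0 in PAP (adjusted p 0.318 in edgeR). Pax5, the regulator of B cell identity, had 0 counts in all 6 libraries, and Cd79a, the partner of Cd79b, had 2 counts in each Astro library and 0 in PAP. The MHC class II genes that Cd74 serves were also near 0 in PAP: H2-Aa and H2-Ab1 had none and H2-Eb1 had 1 count. Bach2, a repressor of plasma cell differentiation, had 89, 95 and 98 counts in Astro and 0, 1 and 0 in PAP, and passed through Astro alone. In all, 14 of the 25 genes had 0 counts in every PAP library and 17 had at most 3 in each. Left out in turn, each Astro library reduced the 5 higher calls to 1, and the PAP libraries of animals 1, 2 and 3 left 3, 4 and 7.

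Germinal centre genes gave 1 call among 4 tested of 8. Mef2b, a transcription factor of that stage, had 2.47, 0.587 and 1.68 CPM in Astro and 127, 27.8 and 73.7 in PAP, and passed the filter through PAP alone. Bcl6, which holds cells in the germinal centre and is also made outside it, had 651, 289 and 495 counts in Astro and 0, 0 and 104 in PAP. It was not called, and passed the filter through Astro alone.

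Plasma cell genes were called only upward. Of 20 genes, 14 were tested and 9 were higher, none lower, with a median log2 fold change of 2.52. Of the 9, 8 passed the filter in each group, and 2 were higher with the block. Without the Astro library of animal 1, 2 or 3, 1, 2 and 2 genes were higher, and without a PAP library 9 to 10. Tent5c, a poly(A) polymerase that stabilises antibody mRNA, rose from 11.9, 12.6 and 14.3 CPM to 1091, 558 and 393 (log2 fold change 5.72 ± 0.51 SE, adjusted p 0.00326 in edgeR, 0.0188 with the block). Edem1, of endoplasmic reticulum degradation, rose from 22.5, 23.1 and 24.8 CPM to 1332, 469 and 606 (log2 fold change 5.09 ± 0.51 SE, adjusted p 0.00473, 0.0204 with the block). Trp53inp1 rose from 73.9, 42.4 and 141 CPM to 3432, 1106 and 1040 (log2 fold change 4.44 ± 0.73 SE, adjusted p 0.0208, 0.0521 with the block).

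Sec11c, a signal peptidase subunit, and Creld2, an endoplasmic reticulum stress protein, were 4.03-fold and 6.11-fold higher in PAP (adjusted p 0.0208 and 0.0215 in edgeR, 0.199 and 0.206 with the block). Sdc1 encodes CD138, the usual surface marker of plasma cells, and had 1.4, 1.88 and 0.508 CPM in Astro and 49.5, 18.6 and 42.6 in PAP. It passed the filter through PAP alone. Ell2, Pim2 and Fkbp11 were the other called genes. Among the genes not called, Tnfrsf13b had 40, 22 and 0 counts in Astro and 180, 206 and 65 in PAP. It passed the filter through PAP alone. Slamf7, which was not tested, had 7, 0 and 1 counts in Astro and 93, 0 and 82 in PAP. Tnfrsf17, the survival receptor BCMA, had 65, 0 and 0 counts in PAP and 0, 0 and 8 in Astro. Derl3 had 13, 15 and 22 counts in Astro and 0 in PAP, and Ikzf3 had none at all. Cd38 had 111, 90.2 and 0.33 CPM in PAP against 246, 210 and 141 in Astro, and passed through Astro alone.

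General secretory genes were called by edgeR in 2 cases. All 20 genes of the unfolded protein response and secretory list were tested and 2 were higher, Ssr1 and Ssr4 of the translocon, by 5.13-fold and 3.13-fold (adjusted p 0.0298 and 0.0432 in edgeR, both 0.206 with the block). Hspa5, the chaperone BiP, had 168, 330 and 111 CPM in Astro and 61.7, 62.4 and 180 in PAP (adjusted p 0.368 in edgeR). At an unadjusted p under 0.05, 4 of the 20 were higher in edgeR. DESeq2 called 7 of the 20, and 1685 of all 14618 tested genes, higher. The list's median was 0.78, and its summed level overlapped between groups, at 1045 to 2213 CPM in Astro and 2028 to 3201 in PAP. Whether the plasma cell and secretory lists differ from each other was not tested.

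Genes of cell division were called upward or not at all. Of 22 genes, 19 were tested and 5 were higher, with none lower and none called with the block, at a median of 3.84. In the fit without the block 10 of the 19 were higher at an unadjusted p under 0.05. DESeq2 called 14 of the 19, and 1685 of all 14618 tested genes, higher. The 19 include Top2a, Plk1, Cdk1, Ccnb1 and Ccnb2, which passed the filter through PAP alone. Nothing is therefore read from the median or from these counts. Top2a, a topoisomerase of dividing cells, had 0.376, 0.822 and 0.203 CPM in Astro and 101, 51 and 66.7 in PAP, and Plk1, a mitotic kinase, had 0.322, 0.117 and 1.07 against 50.5, 45.4 and 34.7. Both passed the filter through PAP alone, and the other 3 called genes passed in each group. Birc5, the survivin gene, rose from 2.74, 1.23 and 1.78 CPM to 205, 111 and 85.3 (log2 fold change 6.11 ± 0.73 SE, adjusted p 0.01, 0.0685 with the block). Rrm2 and Tpx2 were 14.3-fold and 20.5-fold higher (adjusted p 0.0208 and 0.0256 in edgeR, 0.199 and 0.206 with the block). Mki67 had 6, 22 and 22 counts in Astro and 64, 1 and 0 in PAP, and was not called (adjusted p 0.318 in edgeR). Pcna, the replication clamp, had 1045, 687 and 921 counts in Astro and 78, 0 and 26 in PAP. Mcm3 had 175, 131 and 191 against 0, 20 and 12. Neither was called, and both passed the filter through Astro alone. Bub1 and Kif11 had no count in PAP.

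Genes of blood cells at large were called in both directions. Of 25 genes, 15 were tested, with 4 higher and 1 lower, against 5.92% and 15.4% of all tested genes. Of these called genes, only Rac2 and Coro1a passed the filter in each group. With the block, 1 was called. Rac2, the blood cell GTPase, rose from 2.52, 1.41 and 4.67 CPM to 246, 169 and 195 (log2 fold change 6.14 ± 0.67 SE, adjusted p 0.0071 in edgeR, 0.0371 with the block). Ikzf1, the lymphoid transcription factor Ikaros, had 0.591, 0.176 and 0.457 CPM in Astro and 120, 118 and 78 in PAP. Coro1a was 5.31-fold higher (adjusted p 0.043 in edgeR, 0.277 with the block). Dock2 had no count in Astro and 44, 2 and 104 in PAP. Ikzf1 and Dock2 passed the filter through PAP alone. Arhgap15 had 74, 78 and 87 counts in Astro and 1, 0 and 0 in PAP, and passed through Astro alone. Without the Astro library of animal 1, 2 or 3 the 4 higher calls became 0, 2 and 1, and without PAP of animal 2 they became 9.

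Markers of other blood and brain cells were measured beside these. T cell genes gave no call among 2 tested of 15, either at an unadjusted p under 0.05 or in DESeq2, with Cd3e at 0 in all libraries and Lck at 18, 51 and 129 counts in Astro and 0 in PAP. Their summed level was 23 to 28.2 CPM in Astro and 23.7 to 32.7 in PAP. None of 8 NK cell genes was tested, and their sum reached at most 0.661 CPM in PAP. Of 16 microglia and macrophage genes, 12 were tested and 3 called lower, P2ry12, Tmem119 and Cx3cr1, which had 0 counts in PAP and passed the filter through Astro alone. None was called with the block. The median of the 12 was 0.91 and turned to -1.94 with the block, and the list summed to 71.7, 62.9 and 30.9 CPM in Astro and 82.7, 66.5 and 140 in PAP, groups that overlap. In PAP, Csf1r had 10, 0 and 15 counts, C1qa 0, 0 and 50, Trem2 0, 1 and 113 and Cd68 15, 0 and 130. Of 12 neutrophil and mast cell genes only Ltf, which encodes lactoferrin, was tested: it rose from 5.64, 4.64 and 7.82 CPM to 650, 590 and 380 (log2 fold change 6.48 ± 0.44 SE, adjusted p 0.00211 in edgeR, 0.0151 with the block), while 8 of the 12 had no count in PAP. Of 10 red cell and platelet genes, 5 were tested and none was called by edgeR, 0 of them at an unadjusted p under 0.05, and DESeq2 called 1; their sum ran from 6.94 to 456 CPM in PAP. The part of these cells in the levels of the 10 genes was not tested.

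Astrocyte markers were called downward or not at all. All 20 were tested, 7 were lower in PAP (among them Slc1a3, Aldoc, Acsbg1 and Atp1b2), none was higher, and none was called with the block. DESeq2 called 16 of the 20, and 3456 of all 14618 tested genes, lower. The median was -1.55, against -0.53 for all tested genes, but -1.64 against -1.63 with the block, and 17 of the 20 lay wholly below Astro, where 35.1% of all tested genes did. By library, the summed astrocyte level was 7479, 14761 and 25415 CPM in PAP for animals 1 to 3, while the 10 genes summed to 8152, 5017 and 3581 CPM. The order of the PAP libraries was opposite for the 2 sums; with 3 libraries this was not tested. In Astro the sums were 36543 to 56185 and 143 to 156 CPM.

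**Figure D4:**
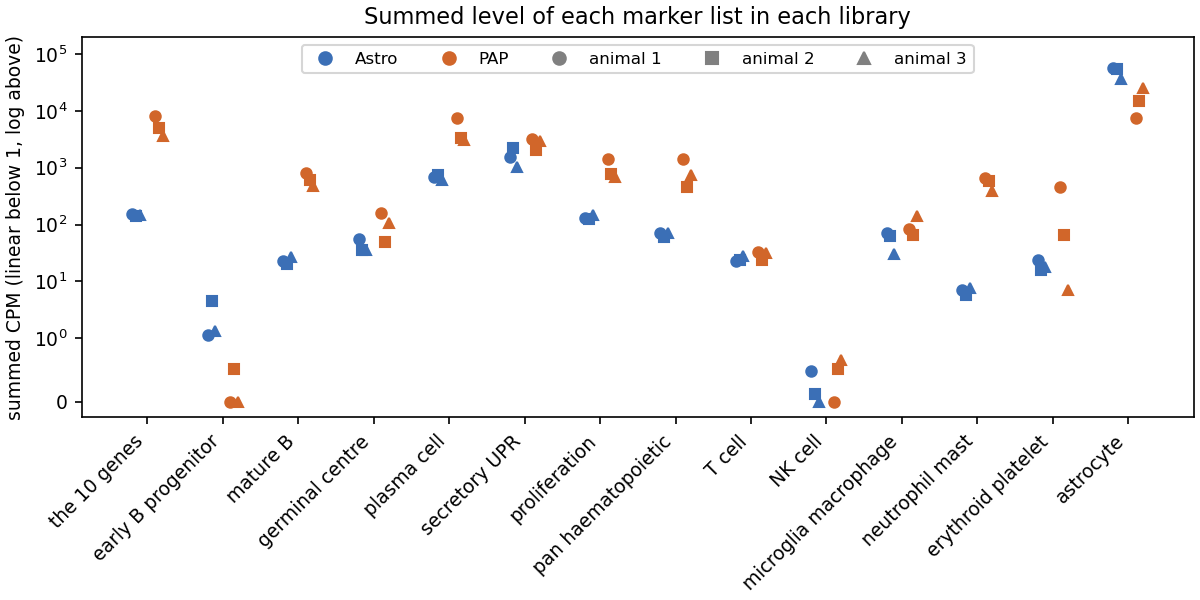
Summed CPM of the 10 genes and of each marker list in every library, on an axis linear below 1 and logarithmic above, with Astro in blue, PAP in orange and a symbol for each animal. The 10 genes sum to 3581 to 8152 CPM in PAP and 143 to 156 CPM in Astro, and the astrocyte list sums to 7479 to 25415 CPM in PAP and 36543 to 56185 CPM in Astro.

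Of the 39 list genes called, 3 kept an adjusted p under 0.05 in edgeR in each of the 6 fits that left out a library: Blnk, Tent5c and Ltf. The 5 called with the animal as a block were these with Edem1 and Rac2.

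The genes whose pattern was most like that of the 10 were sought among 8964 genes with a mean of at least 10 CPM in PAP, by Pearson's r of log2(CPM + 1) over the 6 libraries with the mean of the 10. The first 10 had r from 0.9957 to 0.9991, and 569 candidates had r above 0.95; the 6 points share the difference between compartments and their depth. They were Mrpl19, Eif3f, Trabd, Prrc1, 2010309G21Rik, Rp9, Tuba1b, Map3k12, Sars and Nucks1. Of these, 9 were 2.00-fold to 8.19-fold higher in PAP. The exception, 2010309G21Rik, had 13, 6 and 9 counts in Astro and 140, 79 and 58 in PAP, a ratio of means of 87.1. It is annotated as an antisense gene at chr16:19051367-19106749 on the plus strand, a span that contains Iglc3 and Iglc1, and without strand information its reads and theirs cannot be told apart.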

How the data were processed

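The authors deposited raw counts per Ensembl gene, per the file headers, for 48 samples. The submitters' processing notes name bcl2fastq 2.18.0.12, Trim Galore 0.4.1, STAR 2.5.2b, SAMtools, HTSeq 0.5.3 and mm10; strand setting and annotation are not given in the sources used here. RNA was amplified with a SMART-Seq kit, per the labels' protocols, without mention of molecular identifiers, so reads are not independent molecules. The 8 technical replicates were summed per animal and compartment. Symbols, positions and exon lengths came from GENCODE M21 on GRCm38, which held 47224 of 47643 IDs (99.9% of counts); all 10 genes and all 210 list symbols matched.

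edgeR 4.0.16 in R 4.3.3 kept genes with filterByExpr (minimum count 10), used TMM scaling and tested PAP against Astro by quasi-likelihood with Benjamini-Hochberg adjustment over 14618 genes. CPM uses TMM factors. Libraries of the same animal were paired; their deviations correlated at 0.033, 0.018 and -0.027, and the model was refitted with animal as a block. DESeq2 1.42.0, other scalings, filters, thinning and leaving out libraries were alternatives.

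The 10 genes and the marker lists were chosen with earlier results of these data known. Genes named are the 10, the immunoglobulin constant genes, the 3 most counted V genes per locus, defining markers whatever their value, up to 5 called genes per list by mean PAP level, and the 10 most alike in pattern. Other genes given beside them (Bach2, Arhgap15, class II and other list members) were chosen after their values were seen. Some genes that this rule names are not reported here.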

Additional observations from a re-analysis of the deposited data

How the results depend on the processing

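With the animal as a replicate block, genes called went from 3115 to 133 (128 higher, 5 lower), pan-haematopoietic genes higher in PAP from 4 to 1, plasma cell genes from 9 to 2 and mature B genes from 5 to 1. DESeq2 called 5141 (1685 higher, 3456 lower) and 8 pan-haematopoietic genes. Without a filter 571 genes were higher. With a mean of at least 100 counts, 1414 were called, 826 lower, with 2 pan-haematopoietic and 2 mature B genes. At equal depth, 1730 were called, 1012 lower, with 3 mature B genes. Leaving out 1 library gave 115 to 4586 genes, 114 to 1251 higher and 1 to 3335 lower, with 0 to 9 pan-haematopoietic, 1 to 10 plasma cell and 1 to 7 mature B genes. The difference in immunoglobulin share, 0.449 percentage points of counts, then ran from 0.351 to 0.544; it contains Igkc, chosen from this contrast, and is given without a test. The Prdm1 difference in log2(CPM + 1), 1.32, reversed to -0.10 without PAP replicate 1 and was 2.39 at most, without PAP replicate 2. The cause of these changes was not tested. The floor of 3 counts reaches 1.55 CPM in PAP for counting error alone, and the scatter between PAP libraries limits detection well above it.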
